A study of Mus musculus with 19 samples.

Results

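Ribosome biogenesis factors are the proteins that make ribosomes without being part of the finished particle. A set of 60 of their genes was followed in the suprarenal aorta (SRA) of mice infused for 24 h with saline or with angiotensin II (Ang II), the peptide that raises blood pressure and drives aneurysms in this model. The 60 were taken by symbol from the 20408 genes of the table, and all 60 were among the 14845 genes tested. Of these, 7 encode snoRNP proteins, 4 are abundant nucleolar proteins, 26 act on the small subunit, 18 act on the large subunit and 5 belong to the RNA polymerase I machinery.

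All 19 mice were ApoE-/- males on a standard diet, were 8 weeks old when the protocol began, received tamoxifen and carried SMA-CreERT2, a tamoxifen-activated recombinase driven by the Acta2 promoter. The control mice (IKKβ+/+: 5 with Ang II, 5 with saline) had an intact Ikbkb gene, and the SMA-CreERT2 Ikkβ Flox/Flox ApoE-/- mice (IKKβ-/-: 5 with Ang II, 4 with saline) lost it in Acta2-expressing cells only, so the other cells of the wall still held it. Ang II was given at 1000 ng/min/kg by the methods of the RNA sequencing, where the labels give 500 to 1000 ng/min/kg. Mice are numbered within each group. The values are reads per gene divided by the size factor of the mouse, called normalised counts here, from between 11382573 and 19906694 reads per mouse on genes.

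Making a ribosome starts in the nucleolus, where RNA polymerase I, guided by UBTF and RRN3, transcribes a long precursor of the ribosomal RNAs. Small nucleolar RNPs (snoRNPs) modify it: the C/D type, with fibrillarin (Fbl), Nop56 and Nop58, methylates riboses, and the H/ACA type, with dyskerin (Dkc1), Nhp2, Nop10 and Gar1, makes pseudouridine. The small-subunit processome and a series of large-subunit assembly factors then fold and cut the precursor into the parts of both subunits, with further steps after export to the cytoplasm. In smooth muscle, as in other cells, ribosome production is a known part of growth and hypertrophy, and the transcription factor MYC, which binds the E-box CACGTG, is a known activator of many of these genes.

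Ikbkb (chromosome 8, 22659212 to 22706589 of GRCm38), the targeted gene, had 594 to 791 normalised counts in saline-infused and 685 to 779 in Ang II-treated IKKβ+/+ mice, against 439 to 586 and 430.2 to 672 in the matching IKKβ-/- mice. The genotypes did not overlap within either treatment. The log2 fold change was -0.39 ± 0.12 with saline (SE, limma adjusted p = 0.0988) and -0.42 ± 0.12 with Ang II (adjusted p = 0.173). The share of reads on the mitochondrial mRNA mt-Co1 was 1.82 to 3.91% in IKKβ+/+ mice and 2.36 to 11.74% in IKKβ-/- mice. Only Ang II-treated mouse 2 (2.36%) and saline-infused mouse 4 (2.83%) of the IKKβ-/- mice lay within the IKKβ+/+ range. The other IKKβ-/- mice had 4.78% or more, so the share differed by genotype and not only in the mice above 10%. It was above 10%, called high below, in Ang II-treated IKKβ-/- mouse 4 (10.27%) and saline-infused IKKβ-/- mouse 3 (11.74%). In these the 60 factors took 0.159% and 0.155% of the reads. In the other 17 mice they took 0.202 to 0.316%. The labels name no batch, and whether animals or libraries were handled by group cannot be told apart from the groups.

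Because MYC is a known regulator, the 250 bases before and 50 after each start site (RefSeq, GRCm38.p6) were searched on both strands for CACGTG, which is its own reverse complement. A window at the gene itself was matched for 52 of the 60 factors, and not for Npm1, Fbl, Bop1, Rrp12, Rrs1, Utp6, Wdr36 and Gnl2. The E-box was found in 10 of the 52 (19.2%), against 11.4% of the 11006 tested genes with a window and 8.1% of all genes with one. By class it was in 7 of 23 small subunit factors, 2 of 15 large subunit factors, 1 of 5 RNA polymerase I genes, 0 of 6 snoRNP genes and 0 of 3 nucleolar genes. The windows below are those of Ltv1 and Imp4, which rose with Ang II in IKKβ+/+ mice, and of Rrn3 and Pes1, described for their roles, with the E-box in capitals. The Ltv1 window (chr10:13193088-13193387 on the minus strand) has it 28 bases after the first transcribed base, and the Imp4 window (chr1:34439579-34439878 on the plus strand) 121 bases before it. The Rrn3 window (chr16:13780449-13780748 on the plus strand) holds the E-box at 215 and at 48 bases before the start, and the Pes1 window (chr11:3963725-3964024 on the plus strand) 2 bases after it.
Ltv1: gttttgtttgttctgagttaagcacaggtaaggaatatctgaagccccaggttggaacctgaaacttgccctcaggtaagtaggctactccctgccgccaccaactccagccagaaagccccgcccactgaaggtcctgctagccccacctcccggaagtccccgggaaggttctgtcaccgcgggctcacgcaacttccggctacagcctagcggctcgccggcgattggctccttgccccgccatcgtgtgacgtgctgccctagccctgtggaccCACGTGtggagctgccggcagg
Imp4: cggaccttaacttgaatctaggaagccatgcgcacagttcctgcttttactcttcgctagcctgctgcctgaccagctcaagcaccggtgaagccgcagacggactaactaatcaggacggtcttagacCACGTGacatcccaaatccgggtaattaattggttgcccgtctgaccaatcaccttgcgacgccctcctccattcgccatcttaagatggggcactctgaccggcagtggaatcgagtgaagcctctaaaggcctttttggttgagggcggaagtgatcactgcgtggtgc
Rrn3: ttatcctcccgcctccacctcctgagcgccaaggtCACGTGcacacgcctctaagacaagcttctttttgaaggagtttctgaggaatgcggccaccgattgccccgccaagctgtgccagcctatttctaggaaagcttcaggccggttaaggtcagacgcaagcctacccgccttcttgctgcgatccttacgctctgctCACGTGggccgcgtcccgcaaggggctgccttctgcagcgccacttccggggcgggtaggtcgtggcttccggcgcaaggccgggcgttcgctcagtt
Pes1: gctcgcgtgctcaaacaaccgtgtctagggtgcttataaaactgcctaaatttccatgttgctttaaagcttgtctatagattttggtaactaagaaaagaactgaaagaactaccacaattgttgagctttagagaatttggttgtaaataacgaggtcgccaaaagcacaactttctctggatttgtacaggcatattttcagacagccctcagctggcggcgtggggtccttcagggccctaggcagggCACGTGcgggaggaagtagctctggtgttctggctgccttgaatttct

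The ETS core CCGGAAG, whose letters cannot overlap those of the E-box, was found in 19 of the 52 factors (36.5%) against 18.8% of tested genes, and the GC box GGGCGG, which can share bases with the ETS core, in 36 (69.2%) against 67.3%. The palindrome CTCGCGAG was in 1 (1.9%) against 2.0%. In IKKβ+/+ mice the 10 factors with an E-box had a median log2 fold change with Ang II of 0.34 (0.20 to 0.55), and the 42 without it 0.32 (-0.12 to 0.83). For the ETS core the medians were 0.37 in 19 factors with it and 0.27 in 33 without. For the GC box, whose share was close to that of tested genes, they were 0.38 in 36 with it and 0.21 in 16 without. None of these splits was tested. These matches describe letters in a window, and binding was not measured.

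Several factors also carry snoRNA genes within their introns. On the same strand, 7 of the 60 (11.7%) had a snoRNA gene inside, against 259 of 21951 protein-coding genes (1.18%, GENCODE): Nop56 with 5, Nop58 with 4, Ncl, Wdr43 and Gnl3 with 3 each, Tsr1 with 2 and Dkc1 with 1. The poly(A) libraries measured the host mRNAs and not these snoRNAs. The 7 hosts had a median log2 fold change with Ang II of 0.43 in IKKβ+/+ mice and -0.06 in IKKβ-/- mice, and the 53 other factors 0.30 and 0.14, none of it tested.

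Per kilobase of the longest coding transcript, the level in saline-infused IKKβ+/+ mice was highest for nucleophosmin (Npm1, 1356 ± 108.6 normalised counts per kb, SD, n = 5), nucleolin (Ncl, 619 ± 72.6) and Rrp1 (606 ± 31.2), a nucleolar protein of the large subunit pathway. It was lowest for Wdr12 (16.6 to 21.6), Rrp12 (28.2 ± 7.0) and Polr1e (29.8 ± 3.8). The spread of Ncl and Rrp1 overlapped. The longest transcript need not be the one used in the aorta, so this order is rough. Reads of 84 bases may not have a unique place in parts of some factors. Of the stretches of that length, 62.1% in Fbl, 45.8% in Ddx18, 34.4% in Nop56, 27.5% in Npm1 and 10.9% in Mrto4 also lay in an annotated transcript of another gene. The genome itself was not searched, so how many reads this touched is not known, and the levels of these 5 are uncertain.

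The first comparison asked what 24 h of Ang II changed in the aorta of mice with intact IKKβ. Most ribosome biogenesis genes had a higher mean with Ang II, and 10 of the 60 rose past the threshold, set at a fold change over 1.2 with an adjusted p below 0.1, while 0 fell. Over all genes tested, 4.33% rose and 4.33% fell. The median log2 fold change of the 60 was 0.32, against 0.01 over all genes, and 58 of 60 were above 0, against 50.7%. The 10 were Nhp2 of the snoRNP class, Rrp9, Noc4l, Ltv1, Heatr1 and Imp4 of the small subunit class, and Bop1, Ftsj3, Noc2l and Ebna1bp2 of the large subunit class. Medians were 0.45 for the snoRNP class, 0.38 for the large subunit, 0.27 for RNA polymerase I, 0.25 for the small subunit and 0.23 for the nucleolar proteins. The lowest values were -0.12 for Ubtf and -0.004 for Imp3, a U3 snoRNP protein.

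The count depended on single mice. It was 2 without Ang II-treated mouse 1, 2 without Ang II-treated mouse 4 and 25 without Ang II-treated mouse 3. Leaving out a saline-infused mouse gave 3 without mouse 1, 6 without mouse 2, 4 without mouse 4 and 3 without mouse 5. DESeq2 on the recovered reads called 24, all higher, where it called 7.06% of all genes higher and 5.62% lower, and an adjusted p under 0.05 left 3. Nhp2 and Bop1 passed in each of the 10 fits with a mouse left out. The share of all genes called was not computed for those fits or for an adjusted p under 0.05. Their counts compare the fits only with each other. The median of the 60 was 0.20 without Ang II-treated mouse 1.

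**Figure D1:**
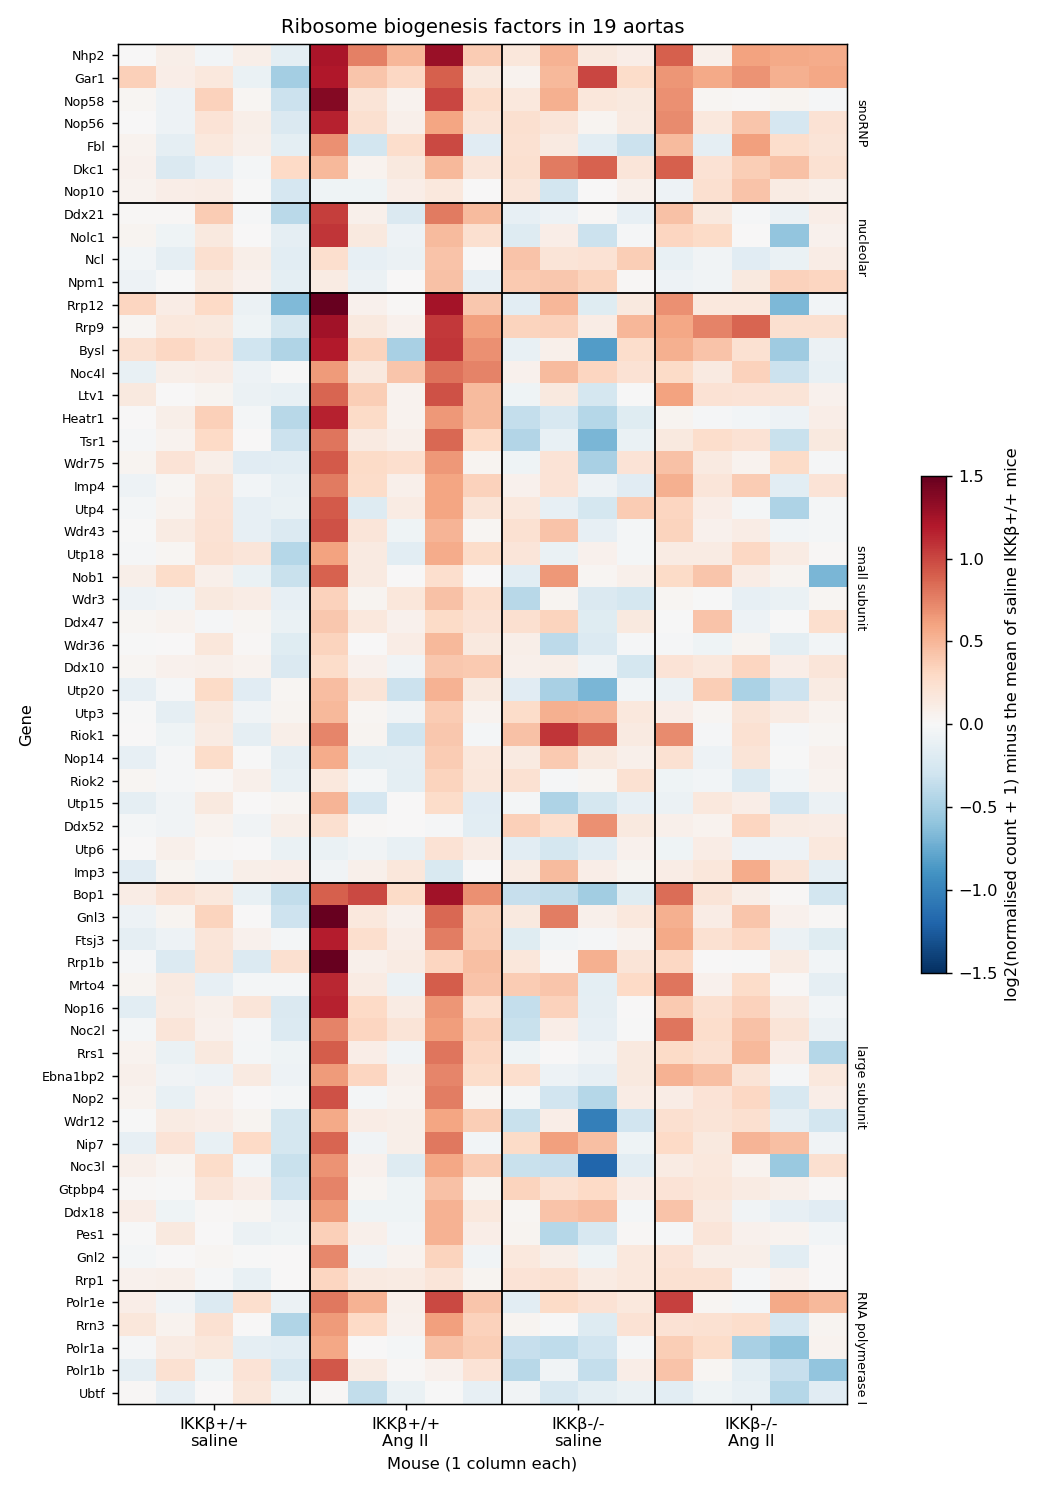
Each row is 1 of the 60 genes, grouped by class, and each column 1 of the 19 mice; colour gives log2(normalised count + 1) minus the mean of the saline-infused IKKβ+/+ mice, blue where lower and red where higher. Columns 1 and 4 of the Ang II-treated IKKβ+/+ group are the reddest, with medians over the 60 genes of 0.74 and 0.57.

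The Ang II-treated IKKβ+/+ mice differed among themselves. The median of the 60 factors, on the log2 scale relative to the mean of saline-infused IKKβ+/+ mice, was 0.74, 0.10, 0.05, 0.57 and 0.21 in mice 1 to 5, and 0.01, 0.03, 0.15, 0.00 and -0.14 in the saline-infused mice. Mice 1 and 4 stood above the rest, whose values included 2 within the range of the saline-infused mice. The SD between mice was 0.30 with Ang II and 0.10 with saline (n = 5 each). Mouse 1 had the highest value of its group in 40 of the 60 genes and mouse 4 in 19. In mice 1 and 4, 55 genes each lay above every saline-infused IKKβ+/+ mouse, against 18, 11 and 32 in mice 2, 3 and 5. The share of all genes that did so was not computed, so these counts compare the mice only with each other. The factors took 0.316% and 0.288% of the reads in mice 1 and 4, and 0.219 to 0.238% in the rest.

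**Figure D2:**
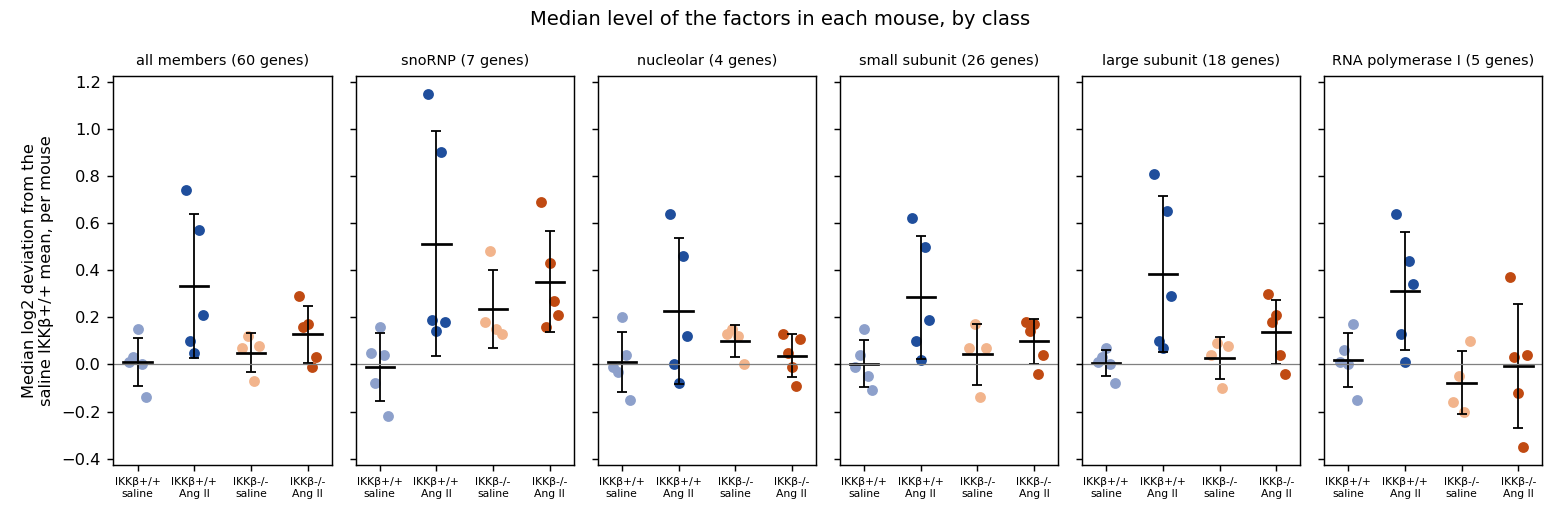
Points are mice, the vertical axis is the median log2 deviation of a class from the mean of saline-infused IKKβ+/+ mice, and bars show the mean and SD of each group. In the panel of all 60 genes the Ang II-treated IKKβ+/+ mice spread from 0.05 to 0.74, and the Ang II-treated IKKβ-/- mice from -0.01 to 0.29.

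Among the snoRNP genes, Nhp2 (chromosome 11, 51619735 to 51623714), an H/ACA core protein, had 421, 302, 252, 440.4 and 233 normalised counts in Ang II-treated IKKβ+/+ mice 1 to 5 and 179, 189.8, 174, 191 and 162 in saline-infused mice. Every Ang II-treated mouse was above every saline-infused mouse. Nhp2 rose by 77.8% (log2 fold change 0.83 ± 0.17, SE, limma adjusted p = 0.0129), from a mean of 179 ± 12 to 329.7 ± 95.9 (SD, n = 5). The groups overlapped for its partners Dkc1, the pseudouridine synthase, Gar1 and Nop10. Their log2 fold changes were 0.27 ± 0.16 for Dkc1 (adjusted p = 0.354, limma), 0.59 ± 0.22 for Gar1 (0.119) and 0.03 ± 0.11 for Nop10 (0.928).

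Of the C/D core, Nop58 had 1462, 640.4, 585, 1127 and 674 normalised counts with Ang II and 572, 533, 711, 575 and 447 with saline. Mice 1 and 4 lay far above all others, and mice 2, 3 and 5 lay within the saline range. The log2 fold change was 0.58 ± 0.21 (adjusted p = 0.12, limma), below the threshold in limma and past it with edgeR and DESeq2. Its partner Nop56 had 618, 329, 292, 418 and 319 with Ang II and 239 to 319.8 with saline, and a log2 fold change of 0.45 ± 0.18 (adjusted p = 0.163). Fibrillarin (Fbl), the methyltransferase, had 48 to 118 with Ang II and 52.6 to 65.2 with saline, and 0.30 ± 0.23 (adjusted p = 0.494). Neither Nop56 nor Fbl passed the test.

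The nucleolar proteins stayed below the threshold. The RNA helicase Ddx21, which acts with RNA polymerase I and snoRNAs, had 2363, 1214, 989, 1974 and 1600.3 normalised counts with Ang II and 1160.0, 1164, 1492, 1138 and 869 with saline, and a log2 fold change of 0.43 ± 0.18 (limma adjusted p = 0.186). Nucleolin (Ncl) had 4623 to 6784 with Ang II and 4542 to 5977 with saline, a log2 fold change of 0.09 ± 0.11 (adjusted p = 0.702). Nucleophosmin (Npm1) had the smallest value of the class, 0.07 ± 0.12 (adjusted p = 0.789).

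In the small subunit class, 5 of 26 factors rose. Noc4l (chromosome 5, 110648418 to 110653417), which pairs with Nop14 in the processome, had 119, 84.3, 102, 135 and 128 normalised counts with Ang II and 70.5, 81, 82.8, 72.2 and 75.7 with saline. All Ang II-treated mice exceeded the saline-infused ones. It rose by 46.3% (log2 fold change 0.55 ± 0.17, adjusted p = 0.0616, limma). Ltv1 (chromosome 10, 13178140 to 13193168), a late factor that leaves the small subunit in the cytoplasm, had 665, 469, 374, 702 and 503 with Ang II and 401, 364, 373, 339.9 and 336 with saline. Only Ang II-treated mouse 3 fell in the saline range. Ltv1 rose by 45.9% (0.55 ± 0.15, adjusted p = 0.0419).

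Heatr1 (chromosome 13, 12395027 to 12440289), the processome protein that also links to RNA polymerase I transcription, had 797, 435, 369.7, 559.9 and 494 normalised counts with Ang II and 359, 378, 459, 348 and 266 with saline. Mice 2 and 3 lay in the saline range. Heatr1 rose by 43.7% (log2 fold change 0.52 ± 0.16, adjusted p = 0.0705, limma). Rrp9 (chromosome 9, 106475963 to 106485424), a U3 snoRNP protein, had 325, 149, 142, 284 and 209 with Ang II and 138, 151, 149.8, 129 and 112 with saline. Its 2 lowest Ang II-treated mice were below the highest saline-infused mouse. Rrp9 rose by 54.7% (0.63 ± 0.20, adjusted p = 0.0801). Imp4 (chromosome 1, 34439851 to 34449356), the U3 partner of Imp3, had 533, 377, 327, 468 and 396 with Ang II and 289 to 356 with saline, and rose by 33.1% (0.41 ± 0.14, adjusted p = 0.0923). Only mouse 3 overlapped the saline-infused group.

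Rrp12, an export factor, had the largest log2 fold change of the small subunit class and did not pass. Its counts were 380.2, 124, 121, 284 and 157 with Ang II and 149, 129, 146, 112 and 74.9 with saline, so that mice 1 and 4 alone stood well clear of the saline-infused group (0.68 ± 0.30, limma adjusted p = 0.209). Imp3 had 322 to 425 with Ang II and 335 to 403 with saline.

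In the large subunit class, 4 of 18 factors rose. Bop1 (chromosome 15, 76452989 to 76477277), which with Pes1 and Wdr12 forms the complex needed to mature the large subunit RNA, had 843, 899.8, 552, 1082 and 726 normalised counts with Ang II and 486, 527, 507, 417 and 348 with saline. All Ang II-treated mice lay above the saline-infused mice. Bop1 rose by 76.9% (log2 fold change 0.82 ± 0.18, adjusted p = 0.0174, limma), from 457 ± 73.6 to 820.3 ± 198 (SD, n = 5). Its partner Pes1 had 519 to 772 with Ang II and 505 to 592 with saline, and did not pass (0.20 ± 0.11, adjusted p = 0.327). Noc2l (chromosome 4, 156235919 to 156247616), an assembly factor of early large subunit particles, had 747, 559, 511, 692 and 574 with Ang II and 387 to 508 with saline, without overlap, and rose by 36.6% (0.45 ± 0.14, adjusted p = 0.0773).

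Ftsj3 (chromosome 11, 106249142 to 106256079), an RNA methyltransferase of the pathway, had 903, 477, 427, 682 and 523 normalised counts with Ang II and 364, 379.5, 454, 417 and 391 with saline. Mouse 3 alone lay within the saline range. Ftsj3 rose by 45% (log2 fold change 0.54 ± 0.17, adjusted p = 0.0755, limma). Ebna1bp2 (chromosome 4, 118620799 to 118627776), a nucleolar assembly factor, had 973, 781, 659, 1033 and 753 with Ang II and 591 to 684 with saline, and rose by 32.8% (0.41 ± 0.13, adjusted p = 0.07). The lowest log2 fold change of the class was that of Rrp1 (0.16 ± 0.08, adjusted p = 0.246). Over the 60 genes, 5 had groups that did not overlap, all higher (Nhp2, Noc4l, Ddx47, Bop1 and Noc2l), where 3.95% of genes tested were higher and 4.47% lower without overlap. Ddx47, a small subunit helicase, was named after its values were seen (0.23 ± 0.11, adjusted p = 0.251).

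**Figure D3:**
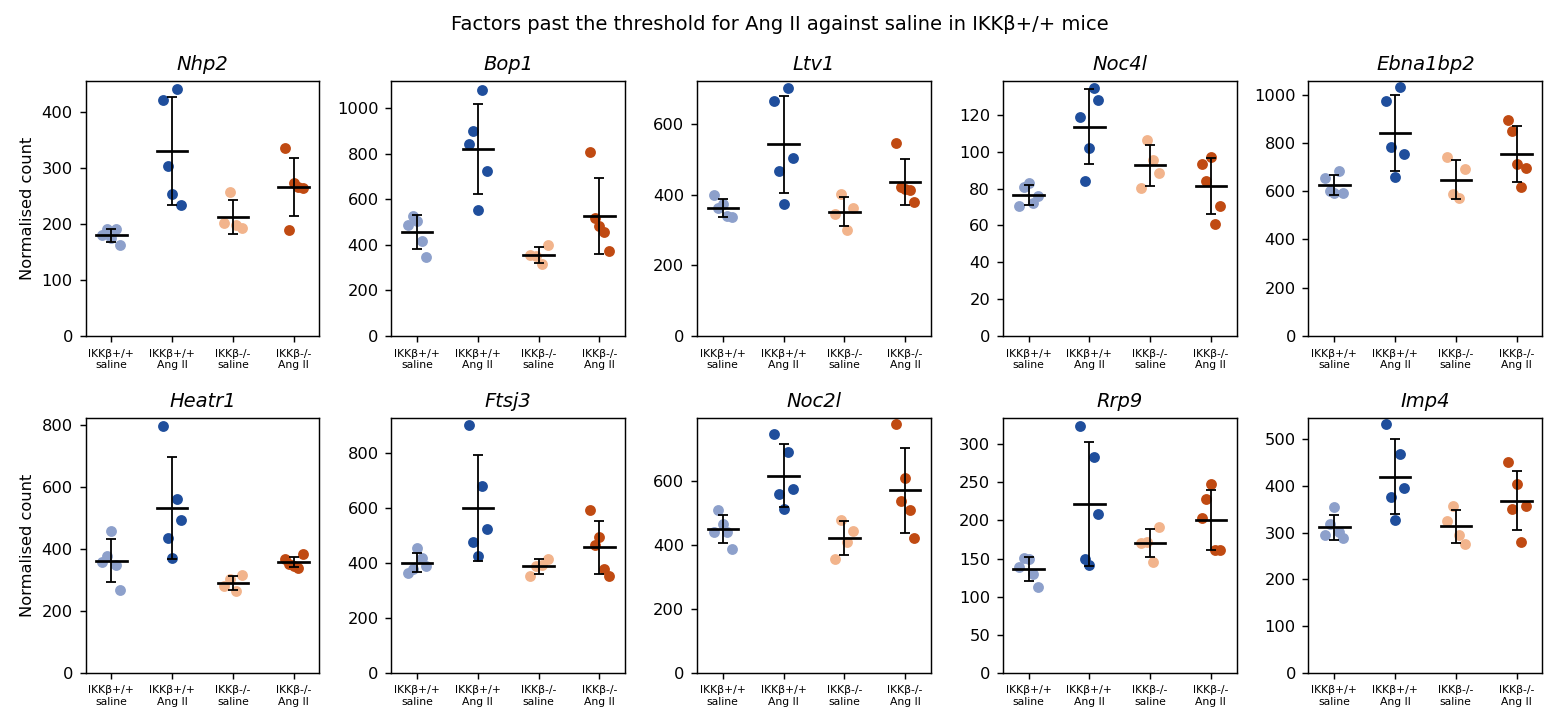
Normalised counts of the 10 factors past the threshold for Ang II against saline in IKKβ+/+ mice; each point is a mouse, bars give the mean and SD of each group, and each vertical axis starts at 0. For Nhp2, Bop1, Noc4l and Noc2l the Ang II-treated IKKβ+/+ mice lie wholly above the saline-infused ones.

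None of the 5 RNA polymerase I genes passed. Polr1e, a subunit of the enzyme, had 154, 127, 93.2, 177 and 118 normalised counts with Ang II and 95.2, 85, 76.7, 105 and 82.9 with saline, the largest value of the class (0.56 ± 0.20, limma adjusted p = 0.116). Only mouse 3 fell within the saline range. Rrn3, the initiation factor that recruits the enzyme, had 835, 659.6, 561, 824 and 683 with Ang II and 604, 559, 629, 539 and 391 with saline (0.39 ± 0.14, adjusted p = 0.117). Mice 1, 2, 4 and 5 were above the saline-infused mice. Polr1a, the largest subunit, had a log2 fold change of 0.27 ± 0.17 (adjusted p = 0.394), and Ubtf, which opens the ribosomal DNA promoter, of -0.12 ± 0.09 (adjusted p = 0.508).

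Myc had 779.7, 116, 117, 281 and 464 normalised counts in Ang II-treated and 66.5, 93.7, 144, 81.7 and 66.2 in saline-infused IKKβ+/+ mice. Mice 1, 4 and 5 lay above the saline-infused group and mice 2 and 3 within it. Myc rose with a log2 fold change of 1.62 ± 0.46 (SE, limma adjusted p = 0.0507). In IKKβ-/- mice Myc had 157, 79.4, 165, 64.2 and 148 with Ang II and 135, 138, 41.4 and 104 with saline, with overlap, and a log2 fold change of 0.27 ± 0.49 (adjusted p = 0.832). The difference between the genotypes was -1.35 ± 0.67 (adjusted p = 0.459). The 10 tested genes of the MYC network, Myc included, had a median of -0.07 in IKKβ+/+ mice. Of them Myc rose, and Mga, which competes for MAX, fell by 0.33 on the log2 scale (adjusted p = 0.0525, limma).

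Wider lists of the same pathway, from general knowledge and holding none of the 60, were read beside them in IKKβ+/+ mice. Of 35 other small subunit factors 33 were above 0 and 3 rose, with a median of 0.24: the kinase Riok3 (log2 fold change 0.42, adjusted p = 0.0186, limma), Wdr46 (0.51) and the methyltransferase Emg1 (0.40). Of 41 other large subunit factors 37 were above 0 and 3 rose, with a median of 0.23: Eif6, which keeps the subunits apart (0.57, adjusted p = 0.0472), Mak16 (0.58) and Wdr74 (0.59). Of 10 other RNA polymerase I genes 8 were above 0 and 0 rose, with a median of 0.14. All 10 snoRNP assembly factors were above 0 and 0 rose, with a median of 0.13. Of 17 exosome and nuclease genes tested 15 were above 0 and 1 rose (Nol12, log2 fold change 0.81, adjusted p = 0.0588, limma), with a median of 0.20. In none of these 5 lists did a gene fall. Over all genes tested 50.7% were above 0, 4.33% rose and 4.33% fell.

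Other features of the tissue moved with Ang II in the same mice. The summed level of 10 smooth muscle markers was 487527 to 680901 normalised counts with Ang II and 353058 to 476755 with saline in IKKβ+/+ mice, without overlap. Of these 10 markers 4 rose and 9 were above 0, and 0 of them were at 0 in either group. The summed level of 20 cell division genes was 339 to 728 with Ang II and 775 to 1286 with saline. Their part in the result was not tested, and in bulk tissue fewer cells of a type and less RNA per cell cannot be told apart. The sum of 10 macrophage markers overlapped, with 6529 to 10377 against 8015 to 10724. So did the sums of 10 endothelial markers, at 14503 to 27631 against 23806 to 39584, and of 10 fibroblast markers, at 35970 to 97556 against 81165 to 104013, with 1 of 10 lower past the threshold in each (Tek, log2 fold change -1.08, and Lum, -1.27). Of 7 striated muscle markers tested Ckm rose (2.93, limma adjusted p = 0.000988), and of 7 neural markers Uchl1 rose (0.86, adjusted p = 0.0349), while 0 of 9 adipocyte and 0 of 3 lymphocyte markers passed.

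The second comparison asked the same of mice without smooth muscle IKKβ. In IKKβ-/- mice the median log2 fold change of the 60 with Ang II was 0.12, and 36 of 60 were above 0, against 49.6% of all genes. By limma 0 of 60 passed, where 2.59% of genes tested rose and 2.69% fell. Of the 60, 9 had an unadjusted p under 0.05, against 17.8% of all genes. By edgeR 0 of 60 passed, and DESeq2 called 3 (2 higher, 1 lower), where it called 3.94% of all genes higher and 3.9% lower. Class medians were 0.16 for the large subunit, 0.15 for snoRNPs, 0.10 for the small subunit, 0.08 for RNA polymerase I and -0.01 for nucleolar proteins. Without Ang II-treated mouse 5 the count was 3, with 2 higher and 1 lower, and the share of all genes called in that fit was not computed. The median of the 60 was 0.07 without Ang II-treated mouse 1, 0.07 without Ang II-treated mouse 3 and 0.06 without saline-infused mouse 3. The groups did not overlap for 2 factors that were higher (Heatr1 and Ddx10) and 1 that was lower (Ncl), where 2.41% and 2.88% of all genes did so. Ddx10, a helicase of the small subunit pathway, was named after its values were seen.

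Nucleolin had 4675, 4859.8, 4495, 4721 and 5481 normalised counts in Ang II-treated and 6781, 5801, 5891 and 6511 in saline-infused IKKβ-/- mice. Every Ang II-treated mouse was below every saline-infused mouse, and the log2 fold change was -0.37 ± 0.12 (limma adjusted p = 0.104). The mean of Ncl was 6246 in saline-infused and 4846 in Ang II-treated IKKβ-/- mice, against 5080 in saline-infused IKKβ+/+ mice. Bop1 had 809.6, 516, 481, 458 and 374 with Ang II and 356, 349.8, 315 and 399 with saline. Mouse 1 stood well above the rest, and the log2 fold change was 0.53 ± 0.20 (adjusted p = 0.161). Noc2l had 776, 537, 608, 509 and 420.3 with Ang II and 354, 477, 409 and 443 with saline, with Ang II-treated mouse 5 inside the saline range (0.41 ± 0.15, adjusted p = 0.152).

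Heatr1 had 367, 352, 346, 339 and 382 normalised counts with Ang II and 279, 302, 265 and 316 with saline, all higher with Ang II (0.30 ± 0.17, limma adjusted p = 0.383). Riok1, a kinase of late small subunit maturation, had 518, 313, 371, 313 and 321 with Ang II and 428, 664, 578 and 347 with saline, the lowest log2 fold change of the 60 (-0.44 ± 0.20, adjusted p = 0.266). The range of Riok1 was wide in both groups, and its mean with saline was 504 in IKKβ-/- against 317 in IKKβ+/+ mice. Tsr1, a GTPase-like factor of the late small subunit, had 0.42 ± 0.18 (adjusted p = 0.221), the highest of its class.

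Other named factors did not pass in IKKβ-/- mice. Nhp2 had 335, 189, 273, 265 and 263 normalised counts with Ang II and 201, 257, 198 and 192 with saline (0.31 ± 0.18, limma adjusted p = 0.404). Mouse 2 alone of the Ang II-treated animals lay below the saline-infused ones. Among the C/D proteins the log2 fold change was -0.10 ± 0.22 for Nop58, 0.10 ± 0.19 for Nop56 and 0.31 ± 0.24 for Fbl. Dkc1 had -0.09 ± 0.17, Npm1 -0.15 ± 0.12, Ddx21 0.20 ± 0.20, Pes1 0.20 ± 0.12 and Ddx18, a large subunit helicase, -0.18 ± 0.16. For RNA polymerase I the values were 0.29 ± 0.21 for Polr1e, 0.18 ± 0.18 for Polr1a, 0.08 ± 0.15 for Rrn3 and -0.05 ± 0.10 for Ubtf. The adjusted p-values of these genes ran from 0.402 for Pes1 to 0.868 for Nop58. Rrp9, Ltv1, Imp4, Ftsj3 and Ebna1bp2, which rose in IKKβ+/+ mice, did not pass here either, and their groups overlapped. In that order their means with Ang II against saline were 200 against 170, 436 against 352, 369 against 313, 457 against 388 and 754 against 648 normalised counts.

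The wider lists gave medians near 0 in IKKβ-/- mice. The median was 0.01 over 35 other small subunit factors (18 above 0, 1 rose), -0.01 over 41 other large subunit factors (20 above 0, 0 called) and -0.09 over 10 other RNA polymerase I genes (4 above 0, 0 called). It was -0.01 over 10 snoRNP assembly factors and -0.00 over 17 exosome and nuclease genes, with 0 called in both. Rcl1, a small subunit factor, was the gene that rose (0.71 ± 0.19, limma adjusted p = 0.0433). Over all genes tested 49.6% were above 0 and 2.59% rose. Adipocyte markers moved in these mice: 7 of 9 tested rose, with a median log2 fold change of 4.0, and their sum was 3367 to 39549 normalised counts with Ang II against 1169 to 4739 with saline. The smooth muscle marker sums overlapped, at 326838 to 582815 against 457151 to 624967. The part of either in these values was not tested.

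**Figure D4:**
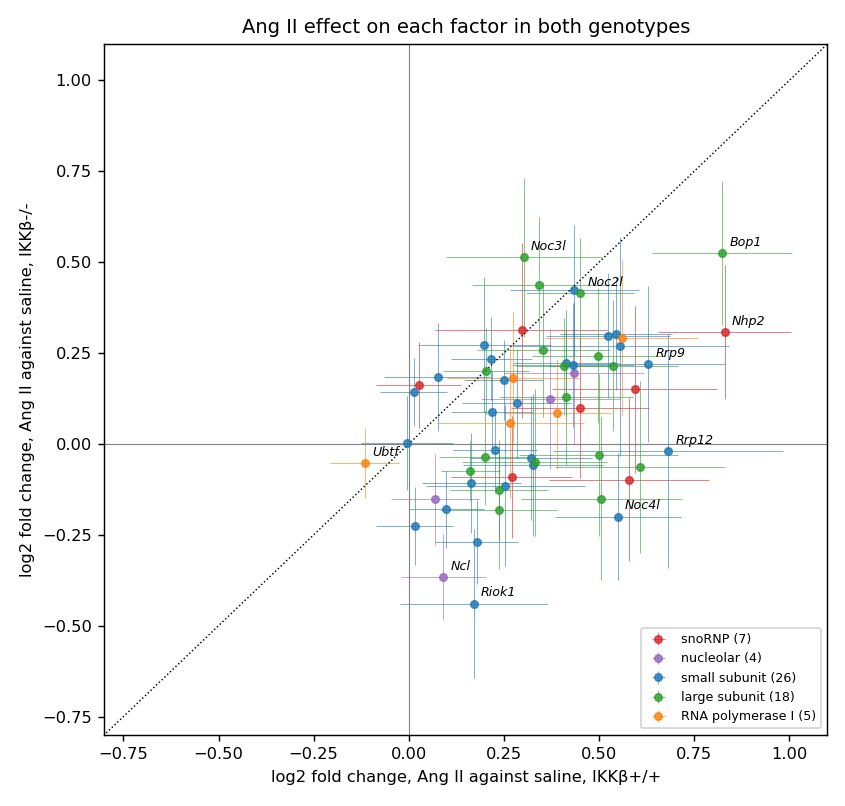
Each point is 1 of the 60 factors, with the log2 fold change for Ang II against saline in IKKβ+/+ mice on the horizontal axis and in IKKβ-/- mice on the vertical axis; bars are SE and the dotted line marks equal values. Points lie below the line for 50 of 60 factors, and 23 are above 0 in IKKβ+/+ and below 0 in IKKβ-/- mice. In IKKβ-/- mice 0 of 60 passed the threshold, and the share of all genes with such signs was not computed.

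The difference between the 2 effects (IKKβ-/- minus IKKβ+/+) was then tested directly. It was below 0 for 50 of the 60, with a median of -0.25, and above 0 for 10, against 49.8% of all genes. By limma 0 of 60 passed, as did 0.0% of all genes in either direction, and 7 of the 60 had an unadjusted p under 0.05, near the 11.1% of all genes. The median was -0.16 without Ang II-treated IKKβ+/+ mouse 1. Neither edgeR nor DESeq2 called any of the 60. Over the whole table edgeR called 3 genes and DESeq2 277 (0.748% higher, 1.12% lower), and the smallest adjusted p of limma was 0.215. Class medians were -0.36 for snoRNPs, -0.27 for the large subunit, -0.24 for both the small subunit and the nucleolar proteins, and -0.21 for RNA polymerase I.

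The smallest p among the 60 was that of Noc4l. It had 93.3, 84.1, 97.2, 61 and 70.7 normalised counts in Ang II-treated and 80.1, 106, 95.5 and 88.5 in saline-infused IKKβ-/- mice, with overlap. Its effect was -0.20 ± 0.17 in IKKβ-/- and 0.55 ± 0.17 in IKKβ+/+ mice, a difference of -0.75 ± 0.24 (limma adjusted p = 0.288). Ncl differed by -0.46 ± 0.16 (adjusted p = 0.332) and Utp3, a processome protein, by -0.45 ± 0.16 (adjusted p = 0.332). The 10 factors that rose in IKKβ+/+ mice had log2 fold changes of -0.20 to 0.53 in IKKβ-/- mice, with a median of 0.26, and 9 of them were above 0. Because they were picked for their rise in IKKβ+/+ mice, a smaller value in the other genotype is not evidence of a difference.

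**Figure D5:**
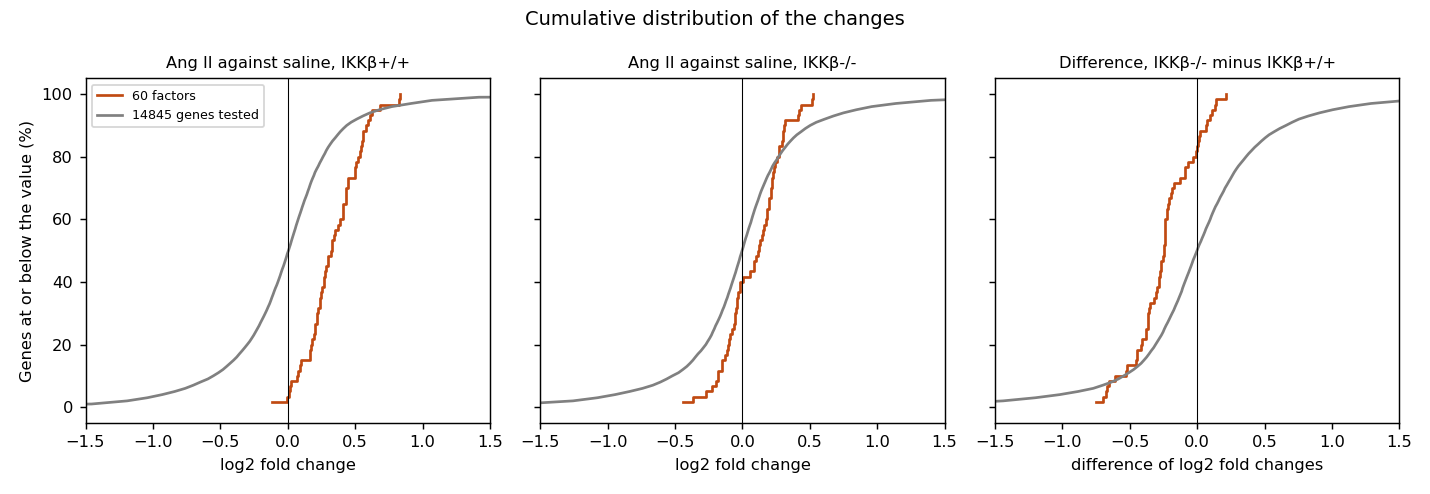
Share of genes at or below each log2 fold change, for the 60 factors (orange steps) and the 14845 genes tested (grey), in IKKβ+/+ mice, in IKKβ-/- mice and for the difference of the effects. The factors lie to the right of all genes in IKKβ+/+ mice (median 0.32) and to the left for the difference (median -0.25).

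The genotypes were also compared within each treatment, with the same mice as above, so these comparisons share their groups with the Ang II effects. With saline the median of the 60 was 0.03 (IKKβ-/- against IKKβ+/+), 34 of 60 were above 0 against 47.6% of all genes, and 2 were higher past the threshold and 0 lower, where 3.4% and 2.07% of all genes were. By DESeq2 4 were higher, where 6.03% of all genes were higher and 3.65% lower. Ddx52 (chromosome 11, 83942062 to 83963088), a helicase of the small subunit pathway, had 621, 578, 778 and 536 normalised counts in IKKβ-/- and 474, 466, 501, 466 and 513 in IKKβ+/+ mice. The genotypes did not overlap (0.36 ± 0.11, limma adjusted p = 0.079). Utp3 (chromosome 5, 88554462 to 88556090) had 589, 706, 697 and 544 against 485, 443, 542, 471 and 504, again without overlap (0.37 ± 0.12, adjusted p = 0.0961). Dkc1 was next by p (0.52 ± 0.17, adjusted p = 0.102). Markers of other cells differed between the same mice. The sum of 10 macrophage markers was 5020 to 7153 normalised counts in IKKβ-/- and 8015 to 10724 in IKKβ+/+ mice, without overlap, and 2 of the 10 were lower past the threshold (Cd68, log2 fold change -0.93, limma adjusted p = 0.0674, and Adgre1, -1.02, adjusted p = 0.0779). Of 10 smooth muscle markers Actg2 was higher (0.79, adjusted p = 0.0883), and the sums overlapped, at 457151 to 624967 against 353058 to 476755. The part of these in the values of the factors was not tested.

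Both calls were fragile. The median was -0.01 without IKKβ+/+ mouse 5, 0.07 without IKKβ+/+ mouse 3, 0.05 without IKKβ-/- mouse 4 and 0.10 without IKKβ-/- mouse 3. The count past the threshold was 0 when any saline-infused mouse was left out except IKKβ+/+ mouse 5 (2) and IKKβ-/- mouse 4 (5). It was also 0 without both mice of high mt-Co1 share, among which saline-infused IKKβ-/- mouse 3 had the highest Ddx52 value. The share of all genes called in these fits was not computed. Groups did not overlap for 5 of the 60, all higher in IKKβ-/- mice (Nhp2, Ddx52, Riok1, Rrp1 and Utp3), where 4.68% of all genes were higher and 4.08% lower without overlap. By class the medians were 0.23 for snoRNPs, 0.10 for nucleolar proteins, 0.03 for both subunits and -0.13 for RNA polymerase I.

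With Ang II the median of the 60 was -0.21 in IKKβ-/- against IKKβ+/+ mice, and 7 of 60 were above 0, against 49.1% of all genes. By limma 0 of 60 passed, where 0.0202% of genes were higher and 0.108% lower. By edgeR 0 of 60 passed too, with 17 genes called over the whole table. DESeq2 called 2, both lower, where it called 1.11% of all genes higher and 2.47% lower. Of the 60, 6 had an unadjusted p under 0.05, against 14.3% of all genes. Without IKKβ+/+ mouse 1 the median was -0.11. Of the markers of other cells 0 passed, and the smooth muscle sums overlapped, at 326838 to 582815 against 487527 to 680901. Bop1 was the lowest, with 809.6, 516, 481, 458 and 374 normalised counts in IKKβ-/- and 843, 899.8, 552, 1082 and 726 in IKKβ+/+ mice, where IKKβ-/- mouse 1 lay within the other genotype's range (-0.65 ± 0.18, limma adjusted p = 0.177). Heatr1 followed by p (-0.52 ± 0.16, adjusted p = 0.2), and then Noc4l (-0.48 ± 0.17, adjusted p = 0.218). The genotypes did not overlap for 0 factors that were higher and 1 that was lower, where 0.653% and 0.882% of all genes did so. This was Wdr3, a processome protein named after its values were seen (302 to 337 against 338 to 445). Without IKKβ+/+ mouse 3 the count past the threshold was 2, and without IKKβ-/- mouse 1 it was 1, all lower. The share of all genes called in either fit was not computed.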

How the data were processed

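Poly(A) RNA of the suprarenal aorta of 19 mice was sequenced as single 84-base reads. Per the labels and the study's methods, the authors used Trimmomatic 0.35 for trimming and STAR 2.7.1a for alignment to GRCm38, counted reads on Gencode genes and divided the counts by DESeq2 1.30.1 size factors. The deposited signal values are these normalised counts, of which 100% were whole multiples of 1 read (tolerance 0.01), and reads were recovered from them.

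All 19 mice entered a single limma 3.58.1 fit (R 4.3.3, lmFit, eBayes with a trend, a mean per group) on log2(value + 1), over the 14845 genes with at least 10 normalised counts in at least 4 mice. The pseudocount understates changes of low genes. Tests were two-sided, with Benjamini-Hochberg adjustment over all genes tested, and calls needed a fold change over 1.2 with an adjusted p below 0.1. The code was tried on simulated data that gave each gene the same spread in all groups. The spread of the factors differed between groups here, so this does not check the calls. Alternatives were a pseudocount of 4, no filter, only the groups compared, array weights, TMM scaling (edgeR 4.0.16), edgeR and DESeq2 1.42.0 on recovered reads, an adjusted p under 0.05, each mouse left out in turn and, chosen after seeing the data, both mice of high mt-Co1 share left out.

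The genes named are those past the threshold, the extremes of each class for Ang II, the 3 smallest p per comparison, 12 factors of known role, Ikbkb and Myc. Members, lists and tests were chosen with earlier results of these data known. Mice of a group count as separate animals. The limma p-values rest on a spread between mice that is pooled over the 4 groups and drawn towards a trend. They do not follow the spread of a single group. The median SD of the factors was 24.1% of the mean in Ang II-treated IKKβ+/+ mice and 9.8 to 15.2% in the other groups. No 2 mice of a group were duplicates. Depth limits the precision of factors with few reads.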

Additional observations from a re-analysis of the deposited data

Results flagged for a closer look

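In 9 of 128 groups of mice examined (7.0%, for the named factors and the median of the 60) the highest or lowest mouse stood apart from the rest of its group, where chance gives about 1 in 20. All 9 were IKKβ-/- groups. With Ang II, mouse 1 was high for Nop58 (903.83 normalised counts), Dkc1 (694.97), Ltv1 (548.03) and Riok1 (518.46). In the same group mouse 3 was high for Ddx52 (604.36) and mouse 4 was low for Tsr1 (428.73). With saline, mouse 2 was high for Nop58 (812.24), Imp3 (522.53) and Nhp2 (257.05). Mouse 4 of the Ang II group had the high mt-Co1 share of 10.27%. The factors share their mice, so these flags are not independent.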

How the results depend on the processing

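The median log2 fold change of the 60 moved by less than the SD between mice (0.176) under each alternative in all 5 comparisons. That SD is larger than the median itself for Ang II in IKKβ-/- mice (0.12) and between genotypes with saline (0.03). There it could miss a change of sign. With a mouse left out the median was 0.20 to 0.41 for Ang II in IKKβ+/+ mice, 0.06 to 0.17 in IKKβ-/- mice, -0.35 to -0.16 for the difference, -0.01 to 0.10 between genotypes with saline and -0.29 to -0.11 with Ang II. Counts of factors past the threshold moved more, and the cause was not tested: leaving a mouse out also leaves fewer samples. They ran from 2 to 25 (10 with all mice), from 0 to 3 (0), 0 throughout, from 0 to 5 (2) and from 0 to 2 (0) in the same order. For fits with fewer mice, without the filter, with array weights or at an adjusted p under 0.05, the share of all genes was not computed. For Ang II in IKKβ+/+ mice DESeq2 gave 24 and an adjusted p under 0.05 gave 3. For Ang II in IKKβ-/- mice array weights gave 1 and DESeq2 3. Between genotypes with saline the count was 0 without the filter, 0 at an adjusted p under 0.05, 0 without both mice of high mt-Co1 share, 4 with only the groups compared, 7 with array weights, 4 with edgeR and 4 with DESeq2. Between genotypes with Ang II DESeq2 gave 2. Over all genes, limma and DESeq2 called 1286 and 1881 for Ang II in IKKβ+/+ mice, 812 and 1436 between genotypes with saline, 0 and 277 for the difference and 19 and 522 between genotypes with Ang II.

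A few values near 0 changed sign. In IKKβ-/- mice, Dkc1 was 0.013 with array weights, 0.029 without both mice of high mt-Co1 share and -0.210 to 0.030 with a mouse left out, and Ubtf was 0.001 without both mice and -0.090 to 0.006 with a mouse left out. Nop56 was -0.015 to 0.226 with a mouse left out. In IKKβ+/+ mice, Imp3 was 0.021 with array weights and -0.049 to 0.051 with a mouse left out, Nop10 was -0.005 with array weights and -0.036 to 0.055, and Npm1 was -0.023 to 0.120. TMM scaling moved the median of all genes by at most 0.009. No paired analysis was possible because the replicate numbers were given in accession order and name no shared litter, day or animal. Depth was enough for all 60 factors to pass the filter on low values.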

Other observations

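Some genes of cell division fell with Ang II. Of 20 such genes tested, 3 fell and 0 rose in IKKβ+/+ mice (median log2 fold change -1.23), where 4.33% of all genes fell, and 8 fell and 0 rose in IKKβ-/- mice (median -1.30), where 2.69% of all genes fell. Their summed level overlapped in IKKβ-/- mice, at 189 to 472 normalised counts with Ang II against 314 to 1007 with saline. Mki67, a marker of cycling cells, fell by 1.42 on the log2 scale in IKKβ+/+ (adjusted p = 0.0267, limma) and fell by 1.98 on that scale in IKKβ-/- mice (adjusted p = 0.008). Cenpf, a kinetochore protein, fell by 1.85 (adjusted p = 0.0836) and fell by 3.30 (adjusted p = 0.00973). The difference between the genotypes had a median of -0.47 over the 20, and 0 of them passed its test by limma. In the same IKKβ+/+ mice the 60 ribosome biogenesis factors had a median of 0.32.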
